A study of Homo sapiens with 32 samples.

Results

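The 39 HOX genes of the human genome lie in 4 clusters, and the windows described here are those of an ATAC-seq count table that lie at their starts. ATAC-seq uses the Tn5 transposase to cut and tag accessible DNA, so a window's count measures how open the chromatin is there. A window was taken as a HOX promoter window when its centre was at most 500 bp from the start of any transcript of a protein-coding HOXA, HOXB, HOXC or HOXD gene. This rule used only positions, and it found 74 of the 212358 counted windows, 26 in HOXA, 18 in HOXB, 19 in HOXC and 11 in HOXD. Another 134 windows lay inside the 4 clusters but away from HOX starts, 46 of them between the genes and 88 within the annotated span of a HOX gene.

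HOX genes encode homeodomain transcription factors that set position along the body axis of the embryo. Within a cluster they are numbered from 1 at the end expressed most anteriorly to 13 at the posterior end, and genes of the same number in different clusters are paralogues. Polycomb complexes keep silent HOX genes compact, Trithorax-type histone methyltransferases oppose them, CTCF and cohesin divide the clusters into domains, and proteins of the TALE homeodomain class bind DNA together with HOX proteins. HEK293T is an established human line derived from embryonic kidney, a tissue in which several HOX genes act during development.

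The study was designed to remove ZNF143, a zinc finger transcription factor that binds promoters, from the HEK293T clone HEK_CloneZD29, where it carries an inducible degron tag. The tag recruits a ubiquitin ligase when the small molecule dTAGV-1 is added, and the tagged protein is then degraded. The compared groups were 8 control libraries (DMSO) and 8 libraries after 30 minutes of 50 nM dTAGV-1, replicates 9 to 16 of each. All 16 libraries come from the same tagged clone, so the controls carry the tag too, and nothing in the labels says that replicates were separate cultures, so p-values measure the spread between these libraries. Replicates 1 to 8 of each group enter only through a summit list that pools libraries.

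Library totals ran from 2275856 to 13671039 counts, and HOX promoter windows held 0.07% to 0.0917% of them. The median count of a HOX promoter window was 21 in the shallowest library and 123.5 in the deepest. That shallowest library, control replicate 12, also had the flattest signal: its top 10% of windows by coverage held 31.8% of its counts, against 45.9% to 49.6% in the other controls. It was the lowest control at 54 of the 74 HOX promoter windows. The dTAGV-1 libraries of replicates 12 and 11 were flatter as well, at 39.0% and 41.8%. The window at the start of ZNF143 was at 6.0 ± 0.43 log2 CPM in control and 5.98 ± 0.27 with dTAGV-1 (SD, n = 8 each), which does not check the labels, since the degron acts on the protein. Of the 9 kidney lineage markers looked up, 7 had a window at a start, among them SALL1 at 4.53 log2 CPM, whereas LHX1 was listed at 0 in every library. That 0 stands in a window of the authors' own peak table, so it does not show closed chromatin. No start window was counted for any of 4 blood markers or 3 liver markers, but both skeletal muscle markers had one, MYOD1 at 2.90 and MYOG at 0.54 log2 CPM.

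The sequences at the centres of 3 HOX promoter windows are given as examples, and they do not stand for the other windows. The following 3 stretches of 121 bases were read from hg38 in the direction of the HOX gene, with every CpG in capitals. None overlaps an annotated coding or untranslated exon, but the HOXC9 centre lies in an exon of the noncoding RNA HOXC-AS2. HOXD11 has one of the 2 most accessible windows of its cluster, and the windows of HOXC9 and HOXD8 are among the 6 with the smallest p between the groups.
HOXD11 (chr2:176107056-176107176, plus strand): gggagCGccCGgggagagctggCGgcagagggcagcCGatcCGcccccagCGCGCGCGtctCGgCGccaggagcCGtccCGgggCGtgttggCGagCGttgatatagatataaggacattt
HOXC9 (chr12:53995350-53995470, plus strand): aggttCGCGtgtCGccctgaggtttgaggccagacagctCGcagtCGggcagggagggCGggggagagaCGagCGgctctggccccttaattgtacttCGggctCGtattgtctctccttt
HOXD8 (chr2:176129538-176129658, plus strand): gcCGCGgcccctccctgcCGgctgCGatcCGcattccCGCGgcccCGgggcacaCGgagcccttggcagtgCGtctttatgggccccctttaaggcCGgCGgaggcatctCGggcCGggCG
The HOXD11 stretch holds 16 CpG, the HOXD8 stretch 15 and the HOXC9 stretch 10.

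HOX promoter windows were mostly CpG-rich. Their ratio of observed to expected CpG had a median of 0.751, and 59 of 74 (79.7%) were above 0.6, a usual mark of CpG islands. Windows at other protein-coding starts had a median of 0.761 with 69.9% above 0.6, and all counted windows had 0.249 with 16.6%. GC content was 61.2% in the median HOX promoter window and 64.3% at other coding starts. HOXD promoter windows were at 66.6% and HOXB at 57.5%. Away from starts, windows between HOX genes had a median CpG ratio of 0.592 and those inside HOX genes 0.53. Over the 74 windows, control level and CpG ratio had a Pearson r of 0.15 and a Spearman rho of 0.02, and level and GC content −0.01 on both measures. These describe windows of the same libraries, of which 34 overlap another HOX promoter window and share counts with it.

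The consensus of the ZNF143 core was looked for on either strand in the 100 bp to each side of every window's centre. It was found in 0 of 74 HOX promoter windows and in 0 of the 134 other cluster windows. It was present in 0.889% of windows at other coding starts, 0.580% of all windows and 13.2% of the 395 windows that were lower with dTAGV-1. For contrast, the called window on chromosome 7 with the smallest p among those holding the core (chr7:150992722-150993122, log2 fold change −2.09, SE 0.19, edgeR adjusted p = 9.56e-10) has 2 copies, with the core in capitals.
ZNF143 core, chr7:150992866-150992885, plus strand: caaacCCCAGCATGCactct
ZNF143 core, chr7:150992919-150992938, minus strand: cagttCCCAGAATGCaggtg
The CTCF consensus, searched in the same way, was found in 0 of 74 HOX promoter windows and in 2 windows between HOX genes, against 1.15% of windows at other coding starts and 3.03% of all windows. One lies between HOXA7 and HOXA9 and the other in the long stretch between HOXB9 and HOXB13.
CTCF consensus in HOXA, chr7:27161133-27161154, minus strand: ggcggCCAGCAGATGGCagtgt
CTCF consensus in HOXB, chr17:48663317-48663338, plus strand: agcaaCCACCAGATGGCcctgt
The HOXA window with this site was at 3.41 ± 0.40 log2 CPM in control and 3.59 ± 0.20 with dTAGV-1. The HOXB window was at 1.33 ± 0.32 and 1.63 ± 0.18, and both differences had unadjusted p of 0.397 and 0.196. A match is a run of letters, and its absence says only that these letters are not in the searched span.

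HOX promoters in these cells were of middling accessibility, with a wide range between genes. Levels are log2 CPM, that is counts scaled to a common library total, after TMM scaling, a correction for library composition. All windows have the same length, so none was scaled by length. Sequence content and read mapping were not corrected for here, and their part in differences between windows was not tested. The 74 windows had a median control level of 3.33, from 1.33 to 5.16, against 3.14 at other coding starts and 1.42 over all tested windows. Ranked among all windows at coding starts, they ran from the percentile 10.9 to 92.6, with a median of 55.1. In the top 10% of coding starts there was 1 HOX window, and in the bottom 10% there were 0. The number of copies of each cluster in this line was not analysed here, and copies and accessibility per copy cannot be told apart from counts.

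HOXA promoter windows were the most accessible of the 4 clusters in every library. The median over a library's HOXA promoter windows was 3.98 ± 0.30 in control (SD, n = 8), from 3.26 in replicate 12 to 4.14. HOXC promoter windows had 3.22 ± 0.15, HOXD 3.08 ± 0.31 and HOXB 2.58 ± 0.19. HOXA was above each other cluster in 16 of 16 libraries, and HOXC and HOXD were each above HOXB in 15 of 16. HOXC and HOXD could not be ordered, since HOXD was the higher in 7 of 16 libraries. With dTAGV-1 the medians were 3.93 ± 0.15 for HOXA, 3.10 ± 0.14 for HOXC, 3.09 ± 0.15 for HOXD and 2.69 ± 0.21 for HOXB, in ranges that overlapped those of the controls in each cluster.

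**Figure D1:**
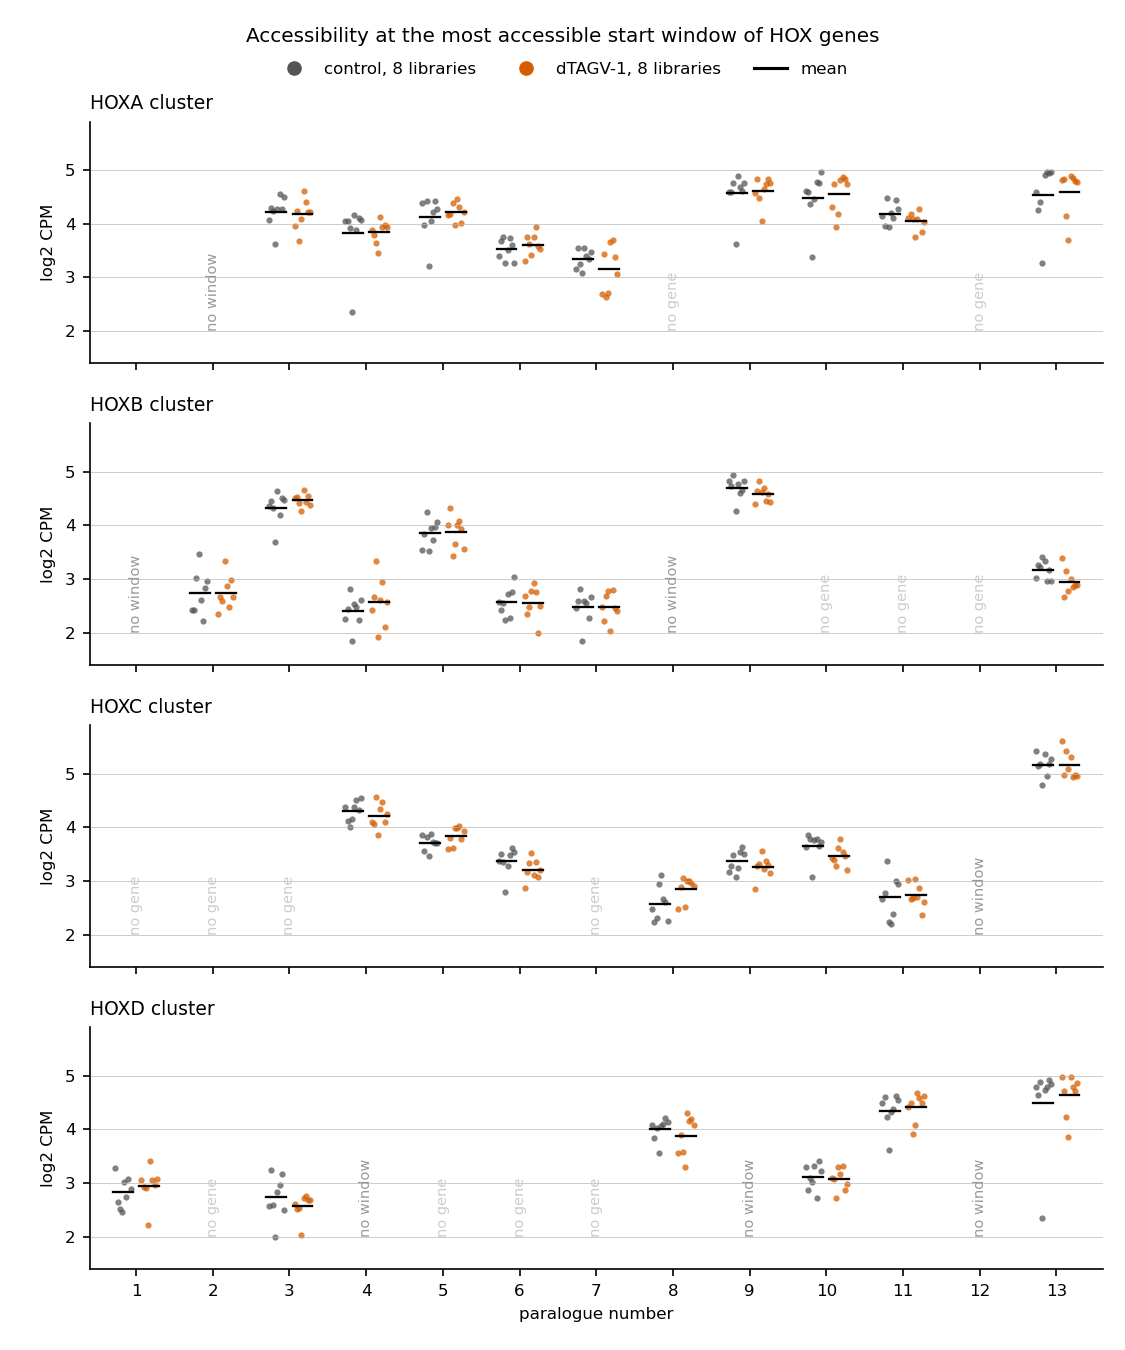
Level (log2 CPM) of the most accessible start window of 31 HOX genes, in 1 panel per cluster, by paralogue number, with 8 control and 8 dTAGV-1 libraries as points and their means as lines. Control and dTAGV-1 points overlap at each of the 31 genes drawn; the low control point at HOXD13 (2.35) is replicate 12.

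Each gene was then described by its most accessible start window in control, which 32 of the 39 genes have. Only 43 of the HOX promoter windows lay within 500 bp of a gene's main start. The level of a gene can therefore belong to another of its starts. Ordered by this level, 30 of the 31 steps between neighbours were within the larger of their SDs, which for several genes rest on control replicate 12. The exception is the step from HOXA7 (3.35 ± 0.18) down to HOXB13 (3.17 ± 0.17), by 0.18, just over the larger SD. Sorting places similar levels side by side, so this says nothing about genes further apart in the order. Posterior genes (paralogues 9 to 13) had a median of 4.35 over 13 genes, central genes (4 to 8) 3.52 over 13, and anterior genes (1 to 3) 3.53 over 6.

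The posterior end held the most accessible HOX promoter. HOXC13, which acts in hair and nail formation, was at 5.16 ± 0.21 log2 CPM in control (SD, n = 8; lowest 4.78, median 5.18, highest 5.42) in a window centred 265 bp upstream of its start. With dTAGV-1 that window was at 5.16 ± 0.25 (lowest 4.94, median 5.03, highest 5.60). The groups overlapped along most of their range, and the log2 fold change was −0.01 (SE 0.14). HOXA13 and HOXD13, both needed for the digits and the urogenital tract, were at 4.53 ± 0.58 and 4.50 ± 0.87, and HOXB13, known from the prostate, at 3.17 ± 0.17. The spread at HOXD13 comes from 1 library: control replicate 12 was at 2.35, and the other 7 controls lay between 4.65 and 4.93. Without that library HOXD13 was at 4.81 ± 0.09 (n = 7).

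Paralogues 12 had no counted start window at all: neither HOXC12 nor HOXD12 had one, and the nearest windows were 1697 bp and 2053 bp from their main starts. Paralogue 11 ranged from 4.35 ± 0.33 at HOXD11 and 4.19 ± 0.20 at HOXA11, genes that pattern the forearm and the kidney, to 2.70 ± 0.41 at HOXC11. Paralogue 10 ranged from 4.48 ± 0.49 at HOXA10, which acts in the uterus and the hindlimb skeleton, through 3.66 ± 0.24 at HOXC10 to 3.12 ± 0.24 at HOXD10. The HOXA10 window lies 1258 bp from the main HOXA10 start. The HOXD10 window lies 8302 bp from the gene's main start, at the start of a longer transcript. In paralogue 9, HOXB9 was at 4.70 ± 0.20, HOXA9, a gene central to leukaemia with KMT2A fusions, at 4.56 ± 0.40, and HOXC9 at 3.37 ± 0.20. The HOXC9 value belongs to another start, since the window nearest to the main HOXC9 start was 1330 bp away. HOXD9 had no start window, and the nearest was 6879 bp from its main start. The HOXA9 value belongs to a start of a long HOXA9 transcript, inside the annotated span of HOXA10 and upstream of its main start, while the window 43 bp from the main HOXA9 start was at 3.98 ± 0.40.

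Central genes spanned a wide range as well. HOXC4 was at 4.30 ± 0.19 and HOXA4 at 3.82 ± 0.60. HOXB4, which promotes blood stem cell growth, was at 2.41 ± 0.29, the lowest of the 32 genes by most accessible window. That HOXC4 window lies at another start, and the window 22 bp from the main HOXC4 start was at 1.93 ± 0.31, below the HOXB4 value. All 3 paralogue 5 genes had a start window, with HOXA5 at 4.12 ± 0.40, HOXB5 at 3.86 ± 0.26 and HOXC5 at 3.72 ± 0.14. Without control replicate 12 they were at 4.25 ± 0.18, 3.91 ± 0.23 and 3.75 ± 0.11 (n = 7). In paralogue 6 HOXA6 was at 3.52 ± 0.20, HOXC6 at 3.37 ± 0.25 and HOXB6 at 2.58 ± 0.27. The HOXA6 window lies 3018 bp from the main HOXA6 start, at another start. The HOXC6 window is shared with HOXC9, since a long HOXC6 transcript starts there, and the window 24 bp from the nearer HOXC6 start was at 2.61 ± 0.26. HOXA7 was at 3.35 ± 0.18 and HOXB7 at 2.48 ± 0.30. HOXD8 was at 4.00 ± 0.21, in a window 445 bp downstream of another start, and HOXC8 at 2.58 ± 0.32. The window 107 bp from the main HOXD8 start was at 2.50 ± 0.27, close to HOXC8. HOXB8 and HOXD4 had no start window, the nearest being 2651 bp and 4920 bp from their main starts. The summit list of replicates 1 to 8 has a summit 86 bp from the HOXB8 start with the authors' −log10 score of 33.3, so the 2 lists differ there.

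Among the anterior genes, HOXD1 was at 2.83 ± 0.29. HOXB3 was at 4.33 ± 0.29 and HOXA3, needed for the thymus and parathyroid, at 4.22 ± 0.29, and HOXD3 at 2.73 ± 0.41. The HOXA3 window lies 39040 bp from the gene's main start, and the window 109 bp from that start was at 4.21 ± 0.37. The HOXD3 value belongs to another start, since the window nearest to the main HOXD3 start was 594 bp away. HOXB2 was at 2.75 ± 0.41. HOXA2 and HOXB1 had no start window, the nearest windows being 3530 bp and 2339 bp from their main starts. HOXB3 had windows far apart in level. Its window 5 bp upstream of a start was 1 of the 2 most accessible promoter windows in HOXB. Its window 455 bp upstream of another start was at 1.33 ± 0.35, the lowest of all 74.

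After 30 minutes of dTAGV-1 no HOX promoter window had changed past the threshold. Of 74 windows, all tested with edgeR's quasi-likelihood test, 0 had an adjusted p below 0.05, against 0.215% of all 185040 tested windows, that is 397, of which 395 were lower with dTAGV-1. At other coding starts 199 windows were called lower and 2 higher, or 0.636%. At an unadjusted p below 0.05, 0 HOX promoter windows were lower, where 1.55% of all tested windows were, and 1 was higher, where 1.3% were. DESeq2 called 0 as well. In 0 of 74 did the 8 dTAGV-1 libraries lie wholly apart from the 8 controls, which held for 0.0746% of all tested windows. Beside those shares, counts of 0 and 1 among 74 set the HOX windows apart in neither direction.

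The fold changes are tight enough to bound what could have been missed. The median log2 fold change over the 74 windows was −0.01 (quartiles −0.08 and 0.05, range −0.29 to 0.41), beside 0.01 over all tested windows and 0.01 at other coding starts. Standard errors ran from 0.13 to 0.21. The 95% interval of each of the 74 windows excluded a 2-fold fall and a 2-fold rise, and in 64 it lay within 0.5 of 0 on the log2 scale. The lowest bound was −0.60, at HOXD8, and the highest 0.69, at HOXB9. Windows called lower in the genome had a median log2 fold change of −0.95, and the one nearest 0 was at −0.56. Of those 395, 320 had an average level within the wide range of the HOX promoter windows, 1.41 to 5.18 log2 CPM. The share of all tested windows within that range was not computed, and the part of level in the HOX counts was not tested.

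**Figure D2:**
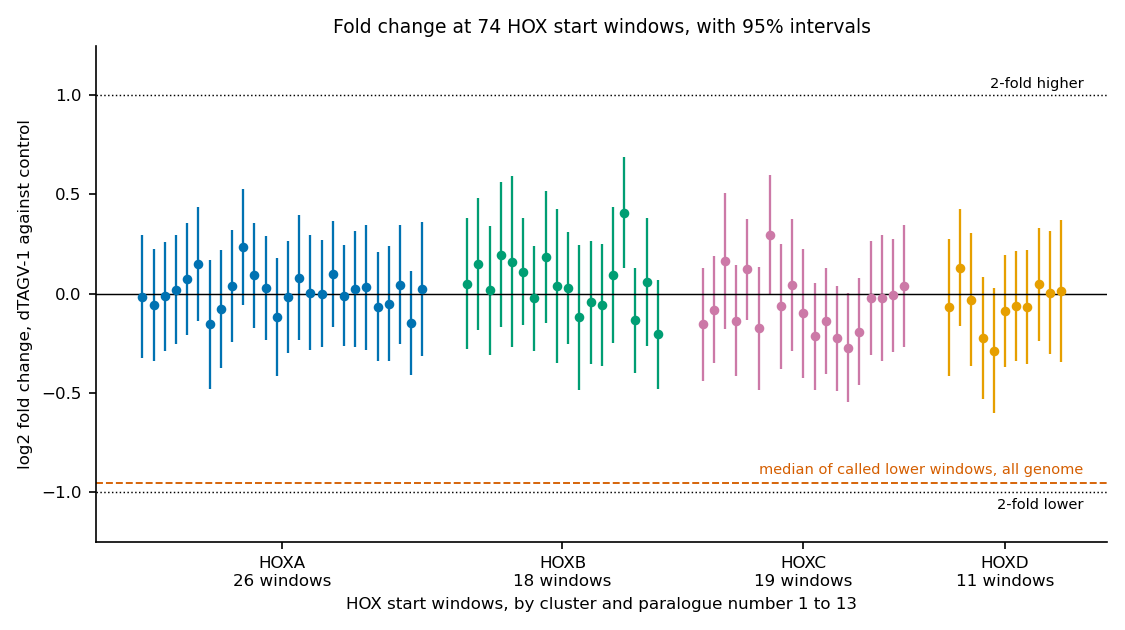
Log2 fold change of dTAGV-1 against control at the 74 HOX promoter windows (points) with 95% intervals (bars), by cluster and, within a cluster, by paralogue number 1 to 13. All intervals lie inside the dotted lines of a 2-fold change, between −0.60 and 0.69, and above the dashed line at −0.95, the median of windows called lower across the genome.

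By cluster, the signs of the fold changes were uneven and the sizes small. In HOXC 14 of 19 windows had a negative fold change, with a median of −0.08, and in HOXD 7 of 11, with −0.06. In HOXB 6 of 18 were negative, with a median of 0.04, and in HOXA 12 of 26, with 0.01. Over all 74, 39 were negative (52.7%), against 48.2% of all tested windows. Overlapping windows share counts, so these are not independent signs, and no cluster was tested as a whole. By position along the axis, the medians were 0.02 over 16 anterior windows, −0.02 over 27 central ones and −0.01 over 31 posterior ones.

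The smallest p belonged to HOXB9, a posterior gene of lung and rib cage patterning. Its window at chr17:48625728-48626128, centred in the coding exon 430 bp downstream of the start, was at 2.75 ± 0.24 log2 CPM in control (lowest 2.46, median 2.72, highest 3.17) and 3.14 ± 0.22 with dTAGV-1 (lowest 2.65, median 3.18, highest 3.35). Of the 8 dTAGV-1 libraries, 7 lay above the control median, and the lowest of them, replicate 12, was below it. The log2 fold change was 0.41 (SE 0.14, 95% interval 0.13 to 0.69), with unadjusted p = 0.00512 and, adjusted over all windows with edgeR, adjusted p = 1. The window upstream of the same start had a fold change of the other sign, at 4.70 ± 0.20 in control and 4.59 ± 0.15 with dTAGV-1 (log2 fold change −0.14, SE 0.13). The value at the downstream window did not pass the correction over all windows.

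HOXC10, expressed in the posterior trunk and hindlimb, had a chain of 3 overlapping windows around its start with negative fold changes, none past the threshold. The one 181 bp downstream (chr12:53985127-53985527) was at 3.22 ± 0.19 in control (lowest 2.94, median 3.26, highest 3.42) and 2.96 ± 0.24 with dTAGV-1 (lowest 2.74, median 2.90, highest 3.42). The groups overlapped over the whole control range, and the log2 fold change was −0.27 (SE 0.14, unadjusted p = 0.053, edgeR adjusted p = 1). The one 34 bp upstream (chr12:53984831-53985231) was at 3.66 ± 0.24 and 3.47 ± 0.19, a log2 fold change of −0.22 (SE 0.13, unadjusted p = 0.0926). Its control SD rests on replicate 12, at 3.08, while the other 7 controls lay between 3.63 and 3.86. HOXC-AS3, a noncoding RNA, starts within 500 bp of both window centres.

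HOXC8 and HOXD8, central genes of the same paralogue number, had differences of opposite sign. The HOXD8 window here is the one 107 bp from its main start, not its most accessible one. HOXC8 (chr12:54008794-54009194) was at 2.58 ± 0.32 in control (lowest 2.24, median 2.55, highest 3.12) and 2.85 ± 0.22 with dTAGV-1 (lowest 2.48, median 2.94, highest 3.05), a log2 fold change of 0.30 (SE 0.15, unadjusted p = 0.0551). HOXD8 (chr2:176129398-176129798) was at 2.50 ± 0.27 in control (lowest 2.24, median 2.44, highest 3.02) and 2.24 ± 0.22 with dTAGV-1 (lowest 1.97, median 2.19, highest 2.54), a log2 fold change of −0.29 (SE 0.16, unadjusted p = 0.0749). In both windows 6 of 8 dTAGV-1 libraries lay on the side of the control median that the fold change gives, and the groups overlapped. HOXC9 (chr12:53995210-53995610, shared with HOXC6) was at 3.37 ± 0.25 and 3.21 ± 0.20, a log2 fold change of −0.22 (SE 0.13, unadjusted p = 0.112). Adjusted by edgeR over all windows, p was 1 for each of these.

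**Figure D3:**
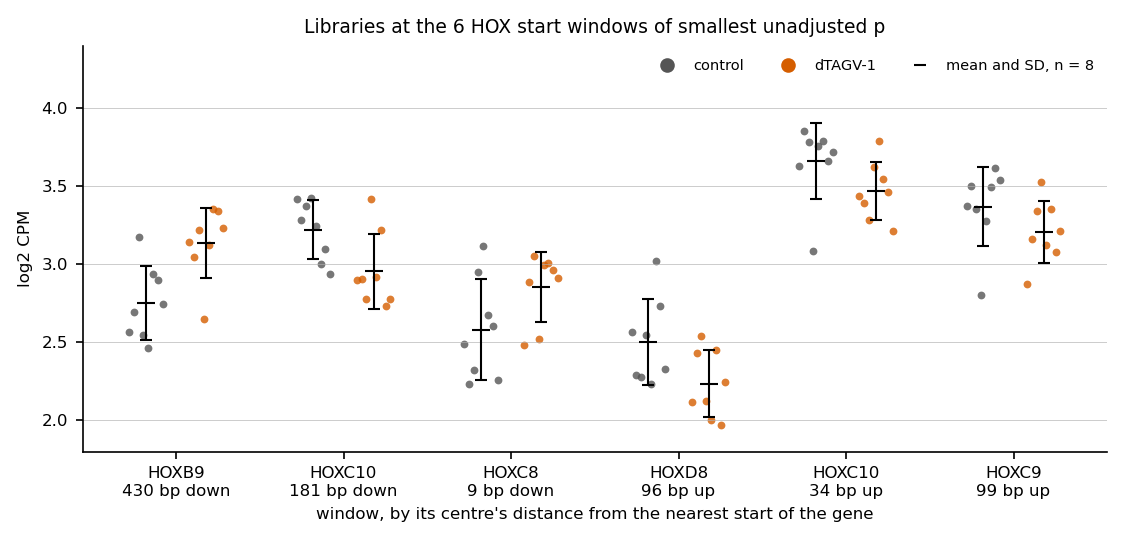
Level (log2 CPM) of each library at the 6 HOX promoter windows with the smallest unadjusted p, with the mean and SD of 8 control and 8 dTAGV-1 libraries. Control and dTAGV-1 libraries overlap at all 6; at HOXB9, 7 of 8 dTAGV-1 libraries lie above the control median of 2.72.

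The clusters as a whole were dense in counted windows. HOXA (chr7:27092993-27200091, hg38) held 5.04 windows per 10 kb, HOXC (chr12:53938831-54056030) 5.12, HOXB (chr17:48528526-48728750) 3.15 and HOXD (chr2:176092721-176190907) 2.65, against 0.688 over the genome. The largest spans with no window were 11648 bp in HOXA, 25142 bp in HOXB, 10026 bp in HOXC and 21122 bp in HOXD. In HOXB the 102392 bp between the main starts of HOXB13 and HOXB9 held 1.56 windows per 10 kb. Its 15 windows away from starts had a median of 1.51 log2 CPM, from 0.31 to 3.66. In HOXD there was no window over the 5941 bp between the main starts of HOXD10 and HOXD9. The pooled summit list of replicates 1 to 8 had 45 summits in HOXA, 57 in HOXB, 51 in HOXC and 25 in HOXD, of which 73.7% to 80.4% fell in a counted window.

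**Figure D4:**
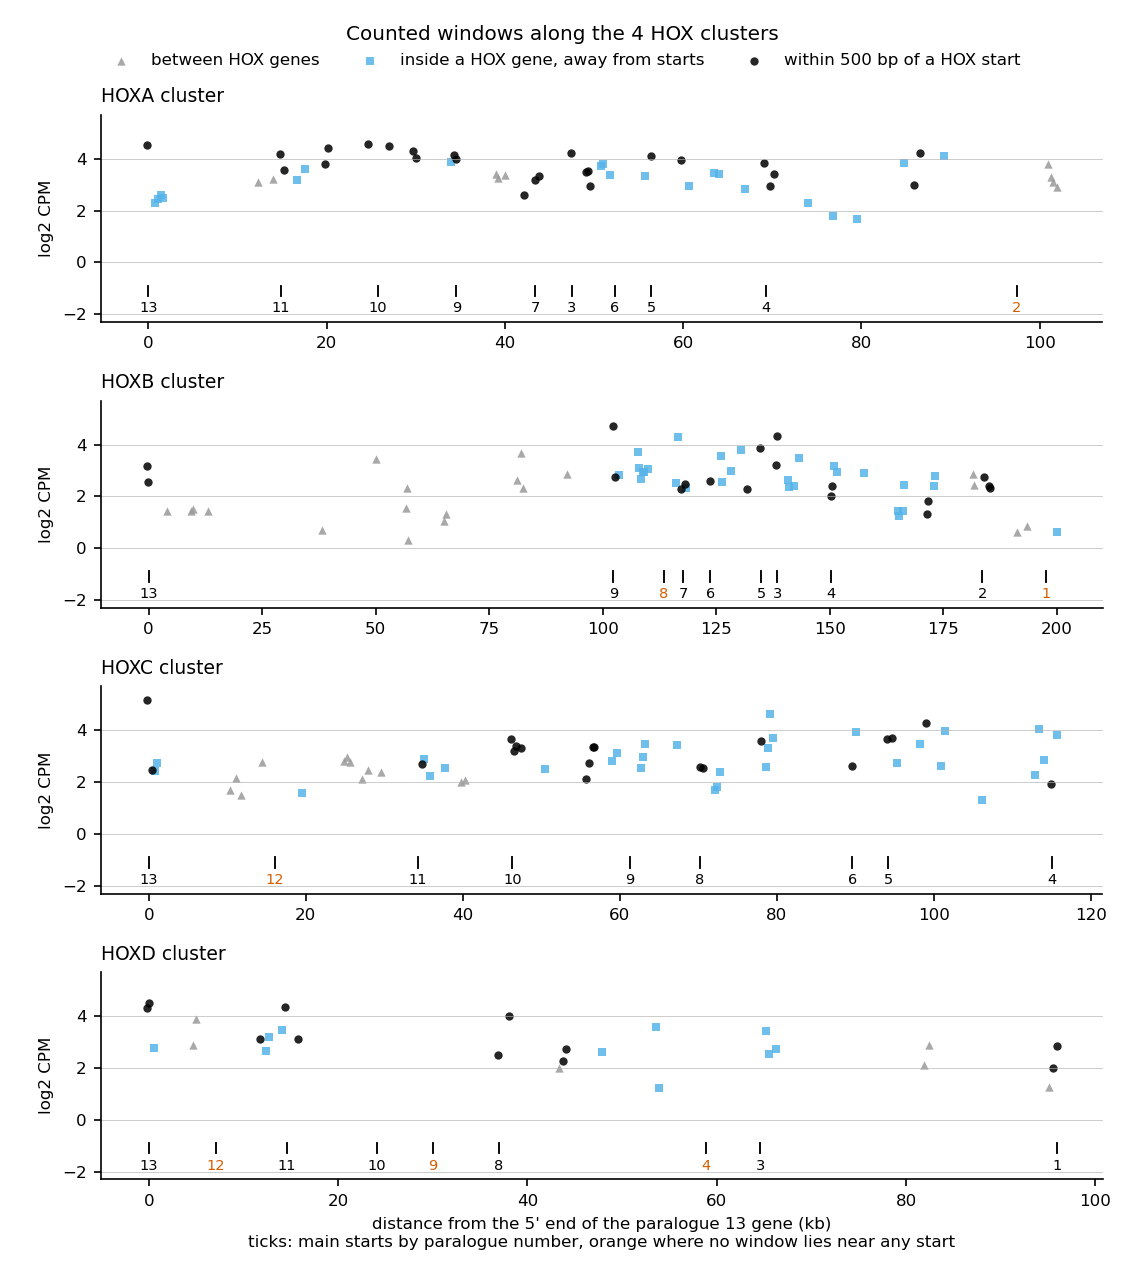
Mean control level (log2 CPM) of counted windows along each HOX cluster (1 start window is not drawn), by distance in kb from the 5′ end of the paralogue 13 gene, with marks for windows at HOX starts, inside HOX genes and between them. Ticks are main gene starts by paralogue number, orange for the 7 genes with no start window; the stretch from HOXB13 to HOXB9 is thinly covered and low, with a median of 1.51 away from starts.

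Windows between the genes were less accessible than those at starts and did not change past the threshold either. Of the 46, 45 were tested, with a median control level of 2.45, from 0.62 to 3.91. The 88 inside HOX genes had 2.83, from 0.63 to 4.65. Of these 133 tested windows 0 were called with edgeR, with 1 lower and 0 higher at an unadjusted p below 0.05. Among all tested windows 0.215% were called, and 1.55% were lower and 1.3% higher at that p. The median log2 fold change was 0.02 between genes and −0.01 inside them. The intervals excluded a 2-fold fall at each of the 133, and a 2-fold rise at all but 1.

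The most accessible window away from starts in HOXC, at chr12:54017817-54018217 in an intron of the long HOXC4 and HOXC6 transcripts, was at 4.65 ± 0.26 log2 CPM in control and 4.58 ± 0.22 with dTAGV-1. It was above the HOXC promoter windows other than that of HOXC13. In HOXB the highest was at chr17:48612046-48612446, in introns of HOXB7 and HOXB8, at 4.30 ± 0.22 and 4.16 ± 0.11. In HOXA it was at chr7:27110601-27111001, in an intron of HOXA3, at 4.13 ± 0.12 and 4.01 ± 0.26. In HOXD it was at chr2:176097542-176097942, between HOXD13 and HOXD12, at 3.91 ± 0.32 and 3.95 ± 0.28. At these 4 windows the groups differed by less than the SD of the wider one.

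The smallest p away from starts belonged to HOXA, in an exon of the noncoding RNA HOXA11-AS between HOXA11 and HOXA13. That window (chr7:27185867-27186267) was at 3.20 ± 0.17 in control (lowest 2.88, median 3.23, highest 3.40) and 2.93 ± 0.22 with dTAGV-1 (lowest 2.59, median 2.94, highest 3.34). In 7 of 8 dTAGV-1 libraries the level was under the control median. The log2 fold change was −0.29 (SE 0.13, unadjusted p = 0.0356, edgeR adjusted p = 1). The windows of smallest p in the other clusters had log2 fold changes of 0.36 in HOXB, −0.27 in HOXC and 0.33 in HOXD, with unadjusted p of 0.123, 0.0879 and 0.125.

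Noncoding RNA genes of the clusters had start windows at 12 of 19 genes, and 0 of these 42 windows were called, beside 0.215% of all tested windows. HOTTIP, read from the HOXA13 end, was at 4.53 ± 0.58 in its most accessible window, which is also that of HOXA13, and HOTAIR, in HOXC, at 2.46 ± 0.23. The miRNA genes MIR10A, MIR10B, MIR196A1, MIR196A2 and MIR196B had no window within 500 bp of their annotated starts, nor had HOXB-AS4 and HOXC-AS1.

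Genes that act on or beside HOX genes were counted in the same way. Among 30 Polycomb and Trithorax regulators, 2 of 74 tested start windows were called lower and 0 higher. Beside this, 0.215% of all tested windows were called, and 0.636% of windows at coding starts other than those of HOX genes. The first was MEN1, whose product menin ties the KMT2A and KMT2B methyltransferases to HOX promoters. Its window (chr11:64810485-64810885) was at 5.85 ± 0.38 log2 CPM in control (lowest 4.98, median 6.0, highest 6.11) and 4.83 ± 0.14 with dTAGV-1 (lowest 4.60, median 4.86, highest 4.98), and 7 of 8 dTAGV-1 libraries were below the lowest control. The log2 fold change was −1.06 (SE 0.15, edgeR adjusted p = 1.14e-05). The second was KMT2B itself (chr19:35717389-35717789), at 4.89 ± 0.40 and 4.21 ± 0.22, with a log2 fold change of −0.73 (SE 0.14, edgeR adjusted p = 0.00488). Among windows at KMT2A starts, the smallest p was 0.523, with a log2 fold change of 0.09 (SE 0.14).

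The Polycomb genes EZH2 and EED, which encode the methyltransferase and a core subunit of PRC2, had smallest unadjusted p of 0.742 and 0.562. RING1 and PCGF2 were listed at 0 in every library at their start windows and were not tested, as was PBX2 among the TALE genes. These too are windows of the authors' peak table, and whether reads there were removed before counting is not given in the sources used here. Of 32 tested TALE windows 0 were called with edgeR, 2 being lower at an unadjusted p below 0.05, and of 36 at CTCF and cohesin genes 0, with 0 at that p. Of 35 at retinoic acid pathway genes 0 were called, with 1 lower and 1 higher at that p. Over all tested windows 0.215% were called, and 1.55% were lower and 1.3% higher at that p.

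Of the genes that flank the clusters, 2 of 28 tested start windows were called, both of CALCOCO1, beside 0.215% of all tested windows and 0.636% of other windows at coding starts. CALCOCO1 lies beside HOXC, and its start window, 211227 bp from the cluster, is the called window nearest to HOXC. That window (chr12:53727404-53727804) was at 5.82 ± 0.48 in control and 4.92 ± 0.26 with dTAGV-1, a log2 fold change of −0.95 (SE 0.16, edgeR adjusted p = 0.000367). The other CALCOCO1 window was higher, with a log2 fold change of 0.79. SMUG1, on the other side of HOXC, had groups that did not overlap, with controls from 4.48 to 4.72 and dTAGV-1 libraries from 3.86 to 4.28, but missed the threshold (log2 fold change −0.47, SE 0.13, edgeR adjusted p = 0.192). For HOXA, HOXB and HOXD the nearest called windows were 1198583 bp, 5729768 bp and 4405301 bp away.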

How the data were processed

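ATAC-seq libraries of replicates 9 to 16 of each group were analysed from a table of whole-number counts per window, which the authors deposited without normalization, per the file headers and values. The table's and the summit list's −log10 values are the authors' own, per the file headers, and only describe windows or summits. The submitters' processing notes name cutadapt 1.8.1, Bowtie2 2.4.4, SAMtools 1.9 and hg38; peak caller, read filters and counting are not given in the sources used here. Of per-sample columns, 0 were left unused.

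Windows were assigned to genes with GENCODE release 44 by their centres (500 bp). Counts were tested with edgeR 4.0.16 (R 4.3.3): filterByExpr, TMM, quasi-likelihood test, Benjamini-Hochberg over 185040 windows, threshold 0.05. On simulated counts with 200 windows changed by set amounts, this test called 119 of them and 6 unchanged windows. Levels are log2 CPM with a prior count of 2. Chi-square per degree of freedom of same-group library pairs was 1.64 to 5.15, so no library repeats another. DESeq2 1.42.0, other scalings, filters, distances, libraries and a replicate block were alternatives. An interval covers spread between libraries only. Windows named were, by rule, the 6 promoter windows of smallest p, the 2 most and 1 least accessible per cluster, and, away from starts, the most accessible and that of smallest p per cluster; EZH2, EED, KMT2A and the windows with a CTCF match were chosen after their values were seen. Some genes and sequences that these rules name are not reported here. Members and lists were chosen with earlier results of these data known.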

Additional observations from a re-analysis of the deposited data

Results flagged for a closer look

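In 58 sets of 8 libraries, 13 single values stood far from the other 7, where chance gives about 1 in 20 sets. Of the 13, 8 were of control replicate 12, the shallowest and flattest library, and 3 of dTAGV-1 replicate 12; the part of depth in them was not tested. Control replicate 12 was low at the promoter windows of HOXC10 (3.08 log2 CPM, 34 bp upstream; the others 3.63 to 3.86), HOXC9 (2.80; 3.28 to 3.62), HOXA9 (3.61; 4.59 to 4.89), HOXD13 (2.35; 4.65 to 4.93) and HOXD11 (3.61; 4.22 to 4.62). It was also low in the median of HOXA promoter windows (3.26; 3.95 to 4.14), in the HOXC4 and HOXC6 intron window (4.09; 4.59 to 5.00) and in the HOXD window of smallest p away from starts (0.45; 1.18 to 1.69).

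At that last window dTAGV-1 replicate 12 was low too (0.42 log2 CPM, the others 1.44 to 2.12), as it was at HOXA9 (4.04; 4.48 to 4.84) and at the HOXB9 window 430 bp downstream of the start (2.65; 3.04 to 3.35). Control replicate 14 was low at the HOXA3 intron window (3.88; 4.09 to 4.27), and control replicate 11 was high at the HOXD1 window 386 bp upstream (2.59; 1.76 to 2.09).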

How the results depend on the processing

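The number of HOX promoter windows called was 0 in all 24 alternatives, as was that of windows between HOX genes, and the median HOX log2 fold change ran from −0.05 to 0.01. Windows called over the genome were 397, or 781 without replicates 11 and 12 of both groups, and 321 to 632 when 1 library was left out, the highest without control replicate 12. At an unadjusted p below 0.05, HOX promoter windows numbered 0 lower and 1 higher. The lower count was 1 with DESeq2, 1 with library totals and 1 at 1000 bp. It was 4 without replicates 11 and 12 (HOXC9, HOXB9 176 bp upstream, HOXC10 34 bp upstream and HOXD8), and 0 to 2 leaving out 1 library. The higher count was 0 at 200 bp and 1 to 3 leaving out 1 library. The cause was not tested. The 6 promoter windows of smallest p kept their signs. The HOXB9 window 430 bp downstream ran from 0.36 to 0.50 with unadjusted p from 0.000532 to 0.0173. The smallest adjusted p of a HOX window under an alternative was 0.113, at that same downstream HOXB9 window without replicates 11 and 12. The median control level was 3.17 at 1000 bp, where more distant windows enter, against 3.33. The median HOX promoter window of control replicate 12 holds 21 counts.

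With a replicate block, 753 windows were called genome-wide and 0 of the HOX promoter windows, with 3 lower and 2 higher at an unadjusted p below 0.05. Same-numbered libraries had deviations correlated at 0.03 to 0.34, over 0.1 in 5 of 8 pairs, where pairs of different number ran from −0.25 to 0.26. Replicate 12 alone was above that range. Still, 5 of 8 controls and 5 of 8 dTAGV-1 libraries correlated best with their own number. This is a hint of pairing from the data, and the labels give none.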
